A study of Homo sapiens with 8 samples.

Results

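The enzymes described here modify collagen after its chains are made. They are 9 genes: P4HA1, P4HA2 and P4HB for prolyl 4-hydroxylase, PLOD1, PLOD2 and PLOD3 for the lysyl hydroxylases, and LOX, LOXL1 and LOXL2 for the lysyl oxidases. They are 9 of 11963 genes measured, and the members were the 15 probe sets, of 22277 on the array, whose annotated symbol is exactly 1 of these names. They were followed through 24 h of hypoxia in SJRH30 cells, an established human line of alveolar rhabdomyosarcoma, a childhood tumour of the skeletal muscle lineage. The time course has 8 arrays of total RNA, 2 at the start (0 h) and 2 each at 6, 12 and 24 h in a hypoxic chamber at 1% oxygen, and the labels call the pairs biological replicates. All groups are the same untreated line in serum-containing medium, and time and oxygen are the differences that the labels give. The 0 h arrays are the sole ones from normal oxygen, so the effect of hypoxia and that of hours in the dish cannot be told apart. In bulk RNA a change in the number of cells that express a gene and a change per cell cannot be told apart either. The labels do not say whether the 2 replicates were separate cultures, and p-values measure the spread between these arrays, which may be technical.

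Values are log2 signals that the authors summarised per probe set with RMA, a method that normalizes arrays to each other. A difference of 1 is 2-fold, measured against the remaining signals of an array. Every probe set other than the controls was tested with limma, a linear model that borrows spread across probe sets, and was called at a Benjamini-Hochberg adjusted p under 0.05 over 22215 probe sets. The labels name the cells muscle fibroblasts. All 8 of 8 myogenic and rhabdomyosarcoma markers, among them MYOD1 at 11.93 to 12.08 and MYOG at 9.89 to 10.20 (means of a time), were above the array median on every array. Of 8 fibroblast markers, COL1A1 and COL3A1 were above it on every array and 5, including DCN, THY1 and FAP, were below it on every array. The mean of the 8 fibroblast markers was 6.59 to 6.65 on the 0 h arrays and 6.64 to 6.71 on the hypoxic arrays, and its part in the results was not tested. Of endothelial, epithelial and leukocyte markers, 4 of 5, 4 of 5 and 3 of 3 measured were below the array median on every array. The 27 probe sets of the poly-A spike-in controls averaged 0.41, 0.38 and 0.58 above 0 h at 6, 12 and 24 h, and the 12 h arrays had the narrowest interquartile ranges, 3.68 and 3.63, against 3.77 to 3.81 on the other arrays. Their part in the results was not tested.

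Collagen chains are modified in the endoplasmic reticulum before the triple helix closes. Prolyl 4-hydroxylase adds the hydroxyl groups that keep the helix stable, and the lysyl hydroxylases hydroxylate lysines that later carry sugars and cross-links. Both belong to the dioxygenases that need molecular oxygen, 2-oxoglutarate, iron and ascorbate. Lysyl oxidases are secreted copper enzymes that also consume oxygen and convert lysines and hydroxylysines into the aldehydes from which cross-links form. Several of these genes are known targets of the hypoxia-inducible factors (HIF), which bind the letters ACGTG or GCGTG in DNA.

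The 250 bases before the annotated start of 6 of the genes are shown because the data below divide them by response. PLOD2, P4HA1, PLOD1 and LOX had the largest rises at 12 and 24 h, P4HA2 a smaller one, and PLOD3 was called at no time. P4HB and LOXL1, also called at no time, are not shown. The windows shown were chosen from these data, so a link of motif and response was not tested. The sequences are from RefSeq (GRCh38.p14). The windows used here covered 8 of the 9 genes, all but LOXL2. Each runs 5′ to 3′ on the strand of the gene, with ACGTG and GCGTG, found on either strand, in capitals.

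PLOD2 (chr3:146161185-146161434, minus strand): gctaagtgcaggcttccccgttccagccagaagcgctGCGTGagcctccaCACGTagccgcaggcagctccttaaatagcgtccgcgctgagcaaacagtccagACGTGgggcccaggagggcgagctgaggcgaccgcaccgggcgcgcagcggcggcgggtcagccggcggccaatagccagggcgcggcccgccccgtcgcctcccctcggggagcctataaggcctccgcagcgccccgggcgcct

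P4HA1 (chr10:73096867-73097116, minus strand): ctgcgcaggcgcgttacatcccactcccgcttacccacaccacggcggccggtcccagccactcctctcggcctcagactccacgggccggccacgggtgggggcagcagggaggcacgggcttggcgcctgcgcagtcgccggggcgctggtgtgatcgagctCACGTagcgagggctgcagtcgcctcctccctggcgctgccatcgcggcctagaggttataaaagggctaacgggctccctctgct

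LOX (chr5:122078260-122078509, minus strand): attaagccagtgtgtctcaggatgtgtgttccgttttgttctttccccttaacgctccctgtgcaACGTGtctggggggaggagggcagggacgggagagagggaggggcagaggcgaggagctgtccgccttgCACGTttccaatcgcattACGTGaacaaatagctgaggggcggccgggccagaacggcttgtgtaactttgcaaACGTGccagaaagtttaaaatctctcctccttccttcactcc

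PLOD1 (chr1:11934467-11934716, plus strand): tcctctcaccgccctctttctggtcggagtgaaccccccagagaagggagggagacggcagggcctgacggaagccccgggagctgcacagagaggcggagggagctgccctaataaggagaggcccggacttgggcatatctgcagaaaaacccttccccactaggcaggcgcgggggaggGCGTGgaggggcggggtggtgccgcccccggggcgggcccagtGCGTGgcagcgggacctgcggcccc

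P4HA2 (chr5:132227092-132227341, minus strand): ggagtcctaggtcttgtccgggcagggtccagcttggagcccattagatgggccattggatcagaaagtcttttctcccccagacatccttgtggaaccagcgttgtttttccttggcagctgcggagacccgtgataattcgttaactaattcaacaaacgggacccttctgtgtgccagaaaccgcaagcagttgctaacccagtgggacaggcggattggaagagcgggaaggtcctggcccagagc

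PLOD3 (chr7:101217582-101217831, minus strand): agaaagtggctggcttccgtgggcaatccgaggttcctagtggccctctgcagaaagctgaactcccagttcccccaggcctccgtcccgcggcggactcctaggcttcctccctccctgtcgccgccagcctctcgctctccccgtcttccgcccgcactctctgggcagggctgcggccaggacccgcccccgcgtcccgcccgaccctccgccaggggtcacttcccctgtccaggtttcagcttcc

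In these windows PLOD2 had 2 matches to ACGTG, 146 and 200 bases before the start, and 1 to GCGTG at 213. P4HA1 had 1 match to ACGTG, 86 bases before the start. LOX had 4, at 42, 98, 116 and 185 bases in the window shown, and the windows of its other two annotated starts, which overlap, share 1 match to ACGTG and 1 to GCGTG. PLOD1 held 2 matches to GCGTG, 25 and 68 bases before the start, and none to ACGTG. P4HB, not shown, held 1 match to GCGTG at 89. P4HA2, PLOD3 and LOXL1 held neither motif in this window. Matches are common: 18.5% of 35116 RefSeq windows of the same length held ACGTG, 32.2% held GCGTG and 43.2% held either. A match describes letters alone, and binding was not measured.

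At 6 h, 5 of the 15 probe sets were called higher and 0 lower (limma; 0 were lower at an unadjusted p under 0.05), against 1.85% of all probe sets called higher, 0.855% called lower and 2.70% in either direction. These 5 stand for 4 of the 9 genes: P4HA1, P4HA2, PLOD1 and PLOD2. At 12 h, 8 were higher, against 6.36% of all probe sets, and 0 lower, against 9.85% (16.2% in either direction). At 24 h, 8 were again higher, against 6.86%, and 0 lower, against 7.80% (14.7% in either direction). With limma 0 were lower at an unadjusted p under 0.05 at 12 and 24 h also. LOX and LOXL2 joined the 4 genes at both times, giving 6 of 9 genes. P4HB, PLOD3 and LOXL1 were not called at any time. The median change of the 15 probe sets was 0.20, 0.34 and 0.34 at 6, 12 and 24 h, beside -0.02, 0.00 and -0.02 for all probe sets. All 6 hypoxic arrays lay above both 0 h arrays for 9 of the 15 probe sets, against 11.6% of all probe sets, and below them for 0, against 15.7%. An F-test over all times called 8 of 15, against 12.6%. The members were chosen with earlier results of these data known, so the counts beside these shares are a description. Without 0 h replicate 1, without 0 h replicate 2 or without 6 h replicate 1, 3 of 15 were called at 6 h: P4HA1 and both probe sets of PLOD2.

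**Figure D1:**
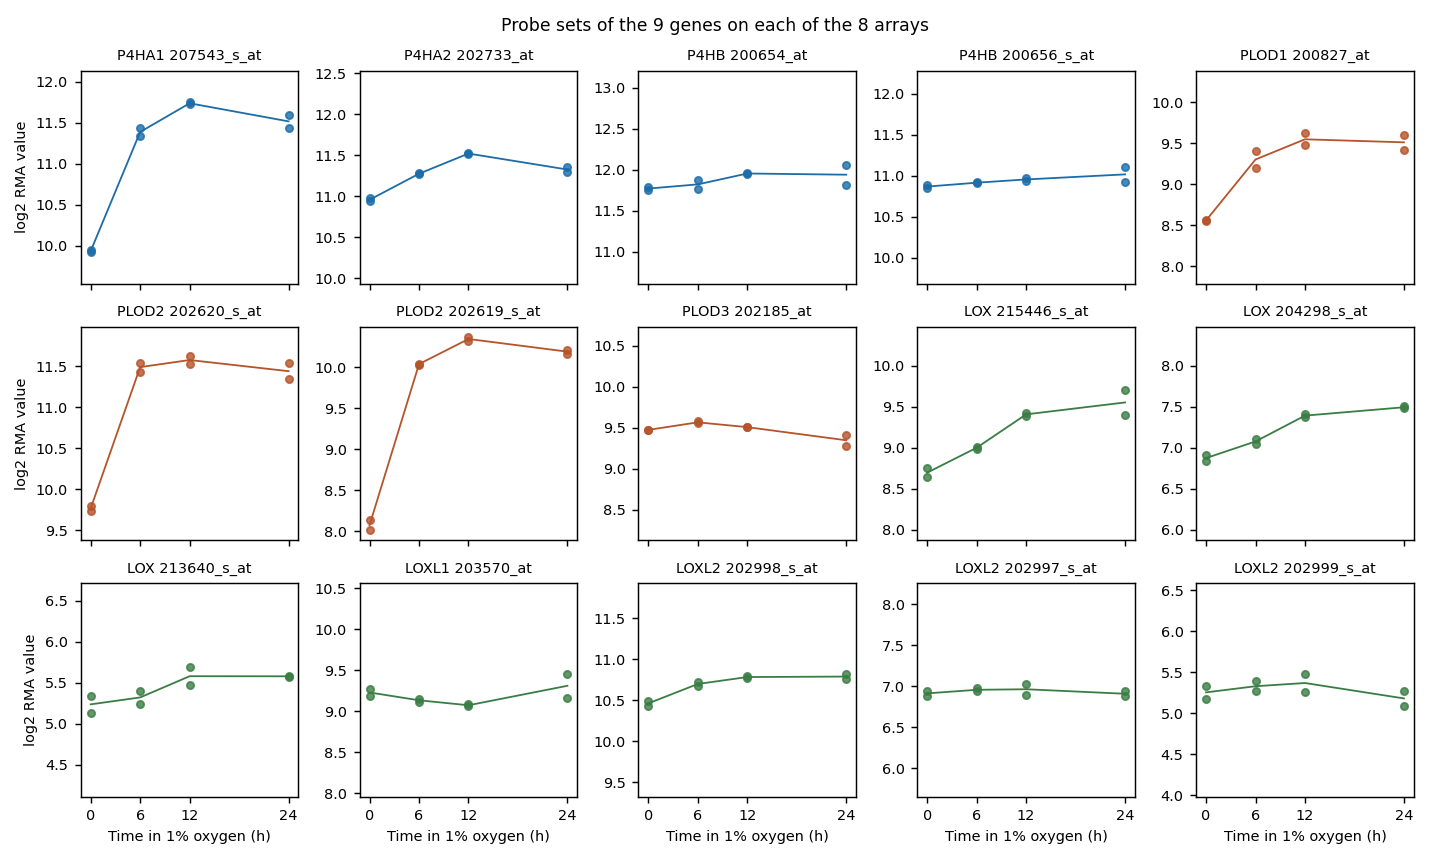
Each panel shows 1 probe set: the horizontal axis is time in 1% oxygen (h), the vertical axis the log2 RMA value, points are the 8 arrays and the line joins the means of each time. Every panel spans 2.6 log2 units, so slopes can be compared; P4HA1, PLOD1 and PLOD2 lie clearly above their 0 h points from 6 h on, and the probe sets of P4HB, PLOD3 and LOXL1 stay close to theirs.

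The catalytic subunit P4HA1 showed the largest change of the prolyl 4-hydroxylase genes. Probe set 207543_s_at read 9.95 and 9.92 at 0 h, 11.44 and 11.34 at 6 h, 11.73 and 11.75 at 12 h, and 11.60 and 11.44 at 24 h. All hypoxic arrays were above both 0 h arrays, and the 12 h pair was the highest. P4HA1 rose by 1.45 ± 0.07 (SE) at 6 h, a 2.74-fold rise (limma adjusted p = 7.52e-05), by 1.80 ± 0.07 or 3.49-fold at 12 h (adjusted p = 1.43e-05) and by 1.58 ± 0.07 or 2.99-fold at 24 h (adjusted p = 2.39e-05). It ranked between place 20 and 34 of 22215 probe sets by size of rise at the 3 times.

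P4HA2 encodes the other catalytic subunit measured, which forms its own enzyme with P4HB. Probe set 202733_at read 10.98 and 10.94 at 0 h, 11.28 and 11.27 at 6 h, 11.53 and 11.52 at 12 h, and 11.30 and 11.36 at 24 h. The replicates of each time lay close together and no hypoxic array overlapped the 0 h arrays. P4HA2 rose 1.25-fold at 6 h (0.32 ± 0.06 SE, limma adjusted p = 0.032), 1.48-fold at 12 h (0.56 ± 0.06, adjusted p = 0.0014) and 1.29-fold at 24 h (0.37 ± 0.06, adjusted p = 0.00566). The 6 h call rested on all 4 arrays of 0 and 6 h, since the limma adjusted p was 0.161 to 0.24 without any 1 of them, and the 24 h call was lost without 0 h replicate 2 (adjusted p = 0.0585).

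P4HB encodes protein disulfide isomerase, which is the β subunit of prolyl 4-hydroxylase, keeps the α subunits soluble and also folds other proteins. The brighter probe set, 200654_at, read 11.78 and 11.75 at 0 h and 11.77 to 12.06 on the 6 hypoxic arrays, so that the groups overlapped. The second, 200656_s_at, read 10.89 and 10.85 at 0 h and 10.91 to 11.12 in hypoxia, all above 0 h but by little. Neither was called at any time, except 200654_at at 12 h with an intensity trend in the variance (limma adjusted p = 0.0425). The largest change of either was 0.18 at 12 h for 200654_at (95% interval -0.02 to 0.38, limma adjusted p = 0.189), and at 24 h the changes were 0.17 and 0.15 (adjusted p = 0.248 and 0.234).

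Whether the 2 catalytic subunits changed unequally was tested on their difference within each array, with p-values adjusted over 7108 such differences (the brightest probe set of each gene against its others, and 7 pairs of related genes on their brightest probe sets). P4HA1 gained on P4HA2 by 1.13 ± 0.09 (SE) at 6 h, 1.24 ± 0.09 at 12 h and 1.21 ± 0.09 at 24 h, or 2.20-fold, 2.36-fold and 2.32-fold (limma adjusted p = 0.00532, 0.0026 and 0.00161). Of all differences 0.0985%, 2.67% and 3.57% were called at these times. The gain was between 1.09 and 1.33 without any 1 array, but the 6 h call was lost without any 1 of the arrays of 0 and 6 h (adjusted p = 0.0896 to 0.145), and the 12 h call without 0 h replicate 1 (adjusted p = 0.0545).

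PLOD2 had the largest rise of the 9 genes, which was clear on probe set 202619_s_at. On its brighter probe set the rise at 12 h was 1.81, beside 1.80 for P4HA1, and PLOD2 was not tested against P4HA1. PLOD2 encodes the lysyl hydroxylase that acts on the telopeptides, the short ends of collagen chains from which stable cross-links start. Probe set 202619_s_at read 8.13 and 8.01 at 0 h, 10.03 and 10.04 at 6 h, 10.32 and 10.37 at 12 h, and 10.22 and 10.17 at 24 h. The lowest hypoxic array, at 10.03, stood far above the higher 0 h array, at 8.13. It rose 3.90-fold at 6 h (1.96 ± 0.06 SE, limma adjusted p = 8.32e-06), 4.83-fold at 12 h (2.27 ± 0.06, adjusted p = 3.08e-06) and 4.34-fold at 24 h (2.12 ± 0.06, adjusted p = 2.69e-06).

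The brighter probe set of PLOD2, 202620_s_at, gave the same picture with smaller changes. It read 9.73 and 9.80 at 0 h, 11.55 and 11.44 at 6 h, 11.53 and 11.63 at 12 h, and 11.54 and 11.35 at 24 h. The hypoxic arrays overlapped each other across times but none reached 0 h. The rises were 1.72 ± 0.08, 1.81 ± 0.08 and 1.67 ± 0.08 at 6, 12 and 24 h, or 3.30-fold, 3.50-fold and 3.19-fold (limma adjusted p = 6.43e-05, 2.96e-05 and 3.53e-05). The difference between the 2 probe sets changed by -0.24, -0.46 and -0.44, which did not pass (adjusted p = 0.415, 0.0524 and 0.0524).

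PLOD1 encodes the lysyl hydroxylase that acts within the triple-helical part of collagen. Probe set 200827_at read 8.57 and 8.55 at 0 h, 9.41 and 9.19 at 6 h, 9.47 and 9.62 at 12 h, and 9.42 and 9.60 at 24 h. Replicates in hypoxia lay further apart than those at 0 h, but all were above 0 h. PLOD1 rose 1.67-fold at 6 h (0.74 ± 0.10 SE, limma adjusted p = 0.00975), 1.99-fold at 12 h (0.99 ± 0.10, adjusted p = 0.00129) and 1.94-fold at 24 h (0.95 ± 0.10, adjusted p = 0.00105). The 6 h call was lost without 0 h replicate 1, 0 h replicate 2 or 6 h replicate 1 (adjusted p = 0.0983, 0.101 and 0.103).

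PLOD3, whose enzyme both hydroxylates lysines and adds sugars to the hydroxylysines, was not called. Probe set 202185_at read 9.47 on both 0 h arrays, 9.55 and 9.58 at 6 h, 9.50 on both arrays at 12 h, and 9.28 and 9.41 at 24 h. The 6 and 12 h arrays were above and the 24 h arrays below the 0 h arrays. The changes were 0.09, 0.03 and -0.13, none past the threshold (limma adjusted p = 0.534, 0.759 and 0.243), with 95% intervals of -0.06 to 0.24, -0.12 to 0.18 and -0.28 to 0.02.

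The 3 lysyl hydroxylase genes therefore differed from each other within arrays. PLOD2 gained on PLOD3 by 1.63 ± 0.12 (SE) at 6 h, 1.78 ± 0.12 at 12 h and 1.80 ± 0.12 at 24 h (limma adjusted p = 0.00288, 0.0015 and 0.000716). PLOD2 gained on PLOD1 by 0.98 ± 0.12, 0.82 ± 0.12 and 0.72 ± 0.12 (adjusted p = 0.049, 0.0239 and 0.0261). PLOD1 gained on PLOD3 by 0.65 ± 0.10 at 6 h, which did not pass (adjusted p = 0.0671), 0.96 ± 0.10 at 12 h (adjusted p = 0.00825) and 1.08 ± 0.10 at 24 h (adjusted p = 0.00358). The order of response was thus PLOD2, PLOD1, PLOD3 at 12 and 24 h, with each step called. The comparison of PLOD2 with PLOD3 kept its call at 12 and 24 h without any 1 array (adjusted p of at most 0.0451) and lost it at 6 h without any 1 of the arrays of 0 and 6 h (adjusted p = 0.0536 to 0.0905). The gain on PLOD1 was less secure: its calls were lost without 0 h replicate 1 at all times (adjusted p = 0.416, 0.166 and 0.173), without 0 h replicate 2 (0.285, 0.161 and 0.143), without 6 h replicate 1 (0.44, 0.0658 and 0.0629) and without 6 h replicate 2 (0.299, 0.0658 and 0.0629), at 12 h without 12 h replicate 2 (0.0613) and at 24 h without 24 h replicate 1 (0.102). The gain of PLOD1 on PLOD3 lost its 12 h call without 0 h replicate 1 or 2 (0.127 and 0.116) and its 24 h call without 0 h replicate 2 or 24 h replicate 1 (0.0639 and 0.0585). In fits of only the 2 times PLOD2 lost its calls against PLOD1 at 12 and 24 h (limma adjusted p = 0.0879 and 0.0611) and PLOD1 its 12 h call against PLOD3 (0.0848). PLOD1 passed against PLOD3 at 6 h without the dimmest 25% or dimmer 50% of probe sets (0.0379 and 0.00302).

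**Figure D2:**
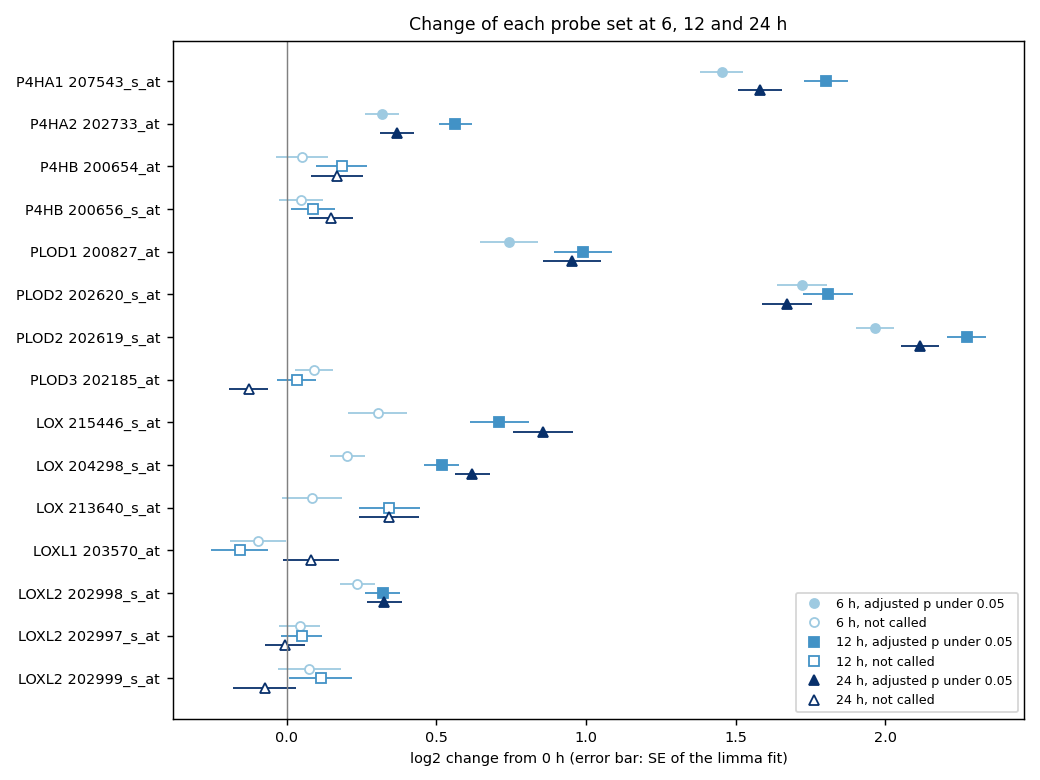
The horizontal axis is the log2 change from 0 h, with the standard error of the limma fit as bars, and each line of the vertical axis is a probe set; circles, squares and triangles are 6, 12 and 24 h, filled where the adjusted p was under 0.05. Filled symbols reach 2.27 for PLOD2, 1.80 for P4HA1, 0.99 for PLOD1 and 0.86 for LOX, while all symbols of P4HB, PLOD3 and LOXL1 are open.

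LOX, the founding lysyl oxidase, which cross-links fibrillar collagen and elastin, was called at 12 and 24 h, and at 6 h under some settings alone. Probe set 215446_s_at read 8.64 and 8.76 at 0 h, 9.01 and 8.99 at 6 h, 9.43 and 9.39 at 12 h, and 9.71 and 9.40 at 24 h. The 0, 6 and 12 h pairs did not overlap each other, while the 24 h arrays spread widest and overlapped those of 12 h. The change was 0.30 ± 0.10 (SE) at 6 h, which did not pass (limma adjusted p = 0.167) except with an intensity trend in the variance (0.0277) or without the dimmer 50% of probe sets (0.041). LOX rose 1.64-fold at 12 h (0.71 ± 0.10, adjusted p = 0.00453) and 1.81-fold at 24 h (0.86 ± 0.10, adjusted p = 0.00187).

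A second probe set of LOX, 204298_s_at, read 6.91 and 6.84 at 0 h, 7.05 and 7.10 at 6 h, 7.41 and 7.38 at 12 h, and 7.50 and 7.48 at 24 h. Here the times followed each other with no overlap at any step. The change was 0.20 ± 0.06 at 6 h (limma adjusted p = 0.128, or 0.0241 without the dimmer 50% of probe sets), and it rose by 0.52 ± 0.06 at 12 h (adjusted p = 0.00223) and 0.62 ± 0.06 at 24 h (adjusted p = 0.000768). The third, 213640_s_at, was dim, at 5.13 to 5.69 and below the median of every array, and was not called at 12 h (0.34 ± 0.10, adjusted p = 0.0578) or 24 h (0.34 ± 0.10, adjusted p = 0.0631). It was called at 12 h without 12 h replicate 2 (adjusted p = 0.0385) and at 24 h without 12 h replicate 1 or 2 (both adjusted p = 0.034). With all arrays it was called without the dimmest 25% of probe sets (limma adjusted p = 0.038 at 12 h and 0.0407 at 24 h) and at 24 h in a fit of only the 2 times (0.0481). The changes of 215446_s_at did not differ past the threshold from those of the other two probe sets of LOX (lowest adjusted p = 0.0922).

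In the fit of all arrays and probe sets, LOX was also the 1 gene of the 9 called between hypoxic times. From 6 to 24 h 215446_s_at rose by 0.55 ± 0.10 (limma adjusted p = 0.0462) and 204298_s_at by 0.42 ± 0.06 (adjusted p = 0.0232), or 2 of 15 probe sets against 1.05% of all called higher (1.48% in either direction). These calls were narrow, and each was lost without 0 h replicate 1 or 2, 6 h replicate 1 or 2, or 24 h replicate 1, that of 204298_s_at also without 24 h replicate 2 (adjusted p = 0.0681 to 0.261), while the changes stayed between 0.39 and 0.71. Both were lost in a fit of only the 2 times (limma adjusted p = 0.0647 and 0.057), and that of 215446_s_at with arrays centred on their medians (0.0533). From 6 to 12 h and from 12 to 24 h, limma called 0 of the 15 probe sets. Of all probe sets, 0.117% and 0.144% were called. At an unadjusted limma p under 0.05, 7 of the 15 were higher in the first step, and 1 was higher and 4 lower in the second. Of all 22215 probe sets, 4647 and 3653 had an unadjusted p under 0.05 in these steps, in either direction. P4HA1 differed by 0.35 from 6 to 12 h and by -0.22 from 12 to 24 h (limma adjusted p = 0.0896 and 0.218), and P4HA2 by 0.25 and -0.19 (adjusted p = 0.101 and 0.177). None of these passed in this fit. With an intensity trend in the variance, or without the dimmer 50% of probe sets, 5 member probe sets were called from 6 to 12 h. Calls over all probe sets were not counted for that step under these settings.

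LOXL2 encodes a lysyl oxidase that acts on the type IV collagen of basement membranes. Its brightest probe set, 202998_s_at, read 10.49 and 10.43 at 0 h, 10.68 and 10.72 at 6 h, 10.77 and 10.79 at 12 h, and 10.76 and 10.81 at 24 h. All hypoxic arrays were above 0 h and the replicates of each time lay close together. The change at 6 h did not pass (0.24 ± 0.06 SE, limma adjusted p = 0.0859), though it did with an intensity trend (0.00315) and without the dimmest 25% or dimmer 50% of probe sets (0.0448 and 0.0123). LOXL2 rose 1.25-fold at 12 h (0.32 ± 0.06, adjusted p = 0.0111) and 24 h (0.33 ± 0.06, adjusted p = 0.0102). Both calls were lost without 0 h replicate 1 (adjusted p = 0.0606 and 0.0574) or 0 h replicate 2 (0.0942 and 0.0912). The other probe sets of LOXL2 did not pass: 202997_s_at lay at 6.88 to 7.03 and 202999_s_at at 5.09 to 5.48 over all arrays, with changes between -0.07 and 0.11. The change of 202998_s_at did not differ from theirs past the threshold (lowest adjusted p = 0.0604), so the call of LOXL2 rests on 1 of 3 probe sets.

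LOXL1, a lysyl oxidase needed for elastic fibres, was not called. Probe set 203570_at read 9.26 and 9.19 at 0 h, 9.11 and 9.15 at 6 h, 9.06 and 9.08 at 12 h, and 9.16 and 9.46 at 24 h. The 6 and 12 h arrays were all below 0 h and the 24 h arrays overlapped it. The changes were -0.10, -0.16 and 0.08 (limma adjusted p = 0.689, 0.304 and 0.642), with 95% intervals of -0.32 to 0.13, -0.38 to 0.06 and -0.14 to 0.30.

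Within arrays, LOX gained on LOXL1 by 0.87 ± 0.18 (SE) at 12 h (limma adjusted p = 0.0457) and by 0.78 ± 0.18 at 24 h (adjusted p = 0.055). LOXL2 gained on LOXL1 by 0.48 ± 0.09 at 12 h (adjusted p = 0.0432) and 0.25 ± 0.09 at 24 h (adjusted p = 0.196). LOX against LOXL2 did not pass in the fit of all probe sets, with 0.07, 0.39 and 0.53 (adjusted p = 0.89, 0.128 and 0.0619). No lysyl oxidase pair passed at 6 h, except LOXL2 against LOXL1 without the dimmer 50% of probe sets (adjusted p = 0.0371). Both 12 h calls were lost without any 1 of the arrays of 0, 6 and 12 h (adjusted p = 0.0638 to 0.236) and in a fit of only the 2 times (0.0879 for LOX and 0.102 for LOXL2). Without the dimmest 25% of probe sets LOX passed at 24 h against LOXL1 (limma adjusted p = 0.0335) and LOXL2 (0.0369), and without the dimmer 50% against both (0.00534 and 0.00677), against LOXL2 also at 12 h (0.0299). The intensity trend gave 0.0475 for LOX against LOXL2 at 24 h. At 24 h LOX passed against LOXL1 without 12 h replicate 1 or 2 (both adjusted p = 0.0493) or 24 h replicate 2 (0.0268) and against LOXL2 without 24 h replicate 2 (0.0364).

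**Figure D3:**
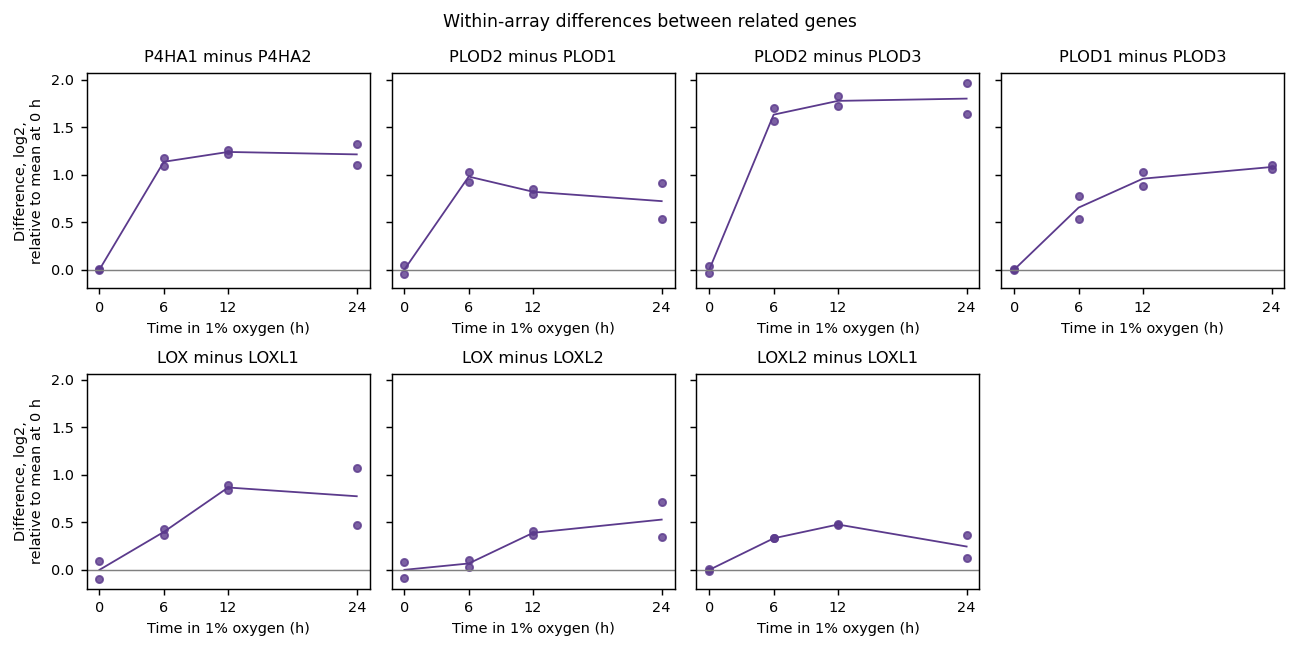
Each panel shows, for 1 pair of related genes, the difference of their log2 values within each array (points) relative to its mean at 0 h, over time in 1% oxygen (h); the line joins the means of each time. The differences of P4HA1 from P4HA2 and of PLOD2 from PLOD3 reached 1.13 and 1.63 by 6 h, and that of LOX from LOXL1 reached 0.40 at 6 h and 0.87 at 12 h.

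The genes whose 3 changes from 0 h lay nearest to those of a member, by Euclidean distance among 11962 other genes on their brightest probe sets, are given as a description; all genes share the same 8 arrays. Nearest to PLOD2 were the hexokinase gene HK2 (distance 0.16), the transcription factor gene BHLHE40 (0.17) and PFKFB3 (0.24), a regulator of glycolysis. Nearest to P4HA1 were the lipoprotein receptor gene VLDLR (0.14), the HIF prolyl hydroxylase gene EGLN1 (0.23) and MXI1 (0.28). Nearest to PLOD1 were SLC25A36 (0.09), the matrix protein gene MATN2 (0.15) and ERO1A (0.15), the oxidase that recharges protein disulfide isomerase. Nearest to LOX were the glycolytic enzyme gene GPI (0.08), VKORC1 (0.08) and VASH1 (0.09). P4HA2 lay nearest to DIDO1 (0.05), ABCC1 (0.07) and ZNF84 (0.08), and LOXL2 to ARGLU1 (0.01), the matrix metalloproteinase gene MMP2 (0.02) and INCENP (0.02). For the genes not called, the nearest were NINJ2 for P4HB (distance 0.02), VPS9D1 for PLOD3 (0.01) and JUND for LOXL1 (0.02).

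**Figure D4:**
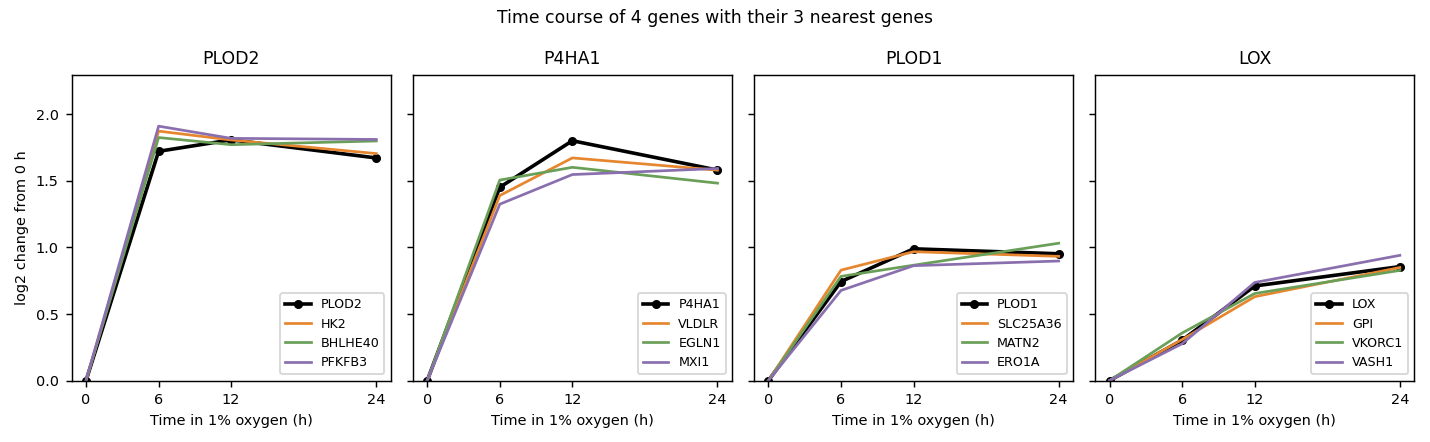
Each panel shows the log2 change from 0 h (vertical) over time in 1% oxygen (h, horizontal) of 1 gene in black, on its brightest probe set, with its 3 nearest genes in colour; each line is a mean of 2 arrays per time. PLOD2 and its neighbours were at 1.72 to 1.91 by 6 h, while LOX and its neighbours were at 0.28 to 0.36 at 6 h and 0.83 to 0.94 at 24 h.

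Other genes of the collagen pathway were taken from lists, 1 probe set of the highest mean per gene, with 76 of 87 listed genes measured. The lists were also chosen with earlier results of these data known. Called higher and lower were 1.95% and 0.878% of 11963 genes at 6 h, 6.55% and 10.3% at 12 h, and 7.86% and 8.02% at 24 h. Of 20 measured genes for collagen folding and processing, 2, 3 and 3 were higher and 0, 1 and 2 lower at 6, 12 and 24 h (limma; at 6 h 1 was lower at an unadjusted p under 0.05). The median change was 0.06, 0.01 and -0.00, beside -0.02, 0.00 and -0.02 for all genes. FKBP9, which encodes a prolyl isomerase of the endoplasmic reticulum, rose by 0.46, 0.81 and 0.99 ± 0.06 (SE; adjusted p = 0.0072, 0.000248 and 6.6e-05). PCOLCE, an enhancer of procollagen C-proteinase, was at 0.23 at 6 h and rose by 0.41 and 0.63 (adjusted p = 0.148, 0.00996 and 0.00176). CRTAP, a partner in prolyl 3-hydroxylation, rose by 0.42 at 6 h (adjusted p = 0.03) and by 0.41 at 24 h (adjusted p = 0.0096), with 0.24 at 12 h (adjusted p = 0.0608). FKBP10, another prolyl isomerase that works with collagen, rose by 0.26 at 12 h (adjusted p = 0.0224). P3H2, a prolyl 3-hydroxylase, fell by 0.28 at 12 and 24 h (adjusted p = 0.0309 and 0.0319), and BMP1, the procollagen C-proteinase that also activates the LOX precursor, fell by 0.26 at 24 h (adjusted p = 0.0275). The collagen chaperone gene SERPINH1 was at 0.00, -0.07 and -0.14 and did not pass.

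Of 11 measured disulfide isomerase and oxidase genes, the wider family of P4HB, 1, 3 and 3 were higher and 0 lower at the 3 times (limma; 0 lower at an unadjusted p under 0.05 also), with medians of 0.07, 0.03 and 0.11. ERO1A rose by 0.68, 0.86 and 0.90 ± 0.06 (adjusted p = 0.00219, 0.000316 and 0.000191). PDIA6 rose by 0.30 at 12 and 24 h (adjusted p = 0.0102 and 0.0106) and the peroxidase gene PRDX4 by 0.30 and 0.35 (adjusted p = 0.0161 and 0.00895). PDIA3 and PDIA4, isomerases close to P4HB, did not pass.

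Of 11 measured genes for export of procollagen from the endoplasmic reticulum, 0, 1 and 1 were higher and 0, 3 and 2 lower (limma; at 6 h 2 were higher and 0 lower at an unadjusted p under 0.05), with median changes of -0.03, -0.14 and -0.13. The coat GTPase gene SAR1B fell by 0.33 at 12 h and 0.43 at 24 h (adjusted p = 0.0111 and 0.00397). MIA3, which encodes the procollagen cargo receptor, fell by 0.31 and 0.34 (adjusted p = 0.0371 and 0.0284), and KLHL12 fell by 0.31 at 12 h (adjusted p = 0.0271). TRAPPC2 rose by 0.24 and 0.33 (adjusted p = 0.0499 and 0.0176).

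Of 9 measured genes for cofactor supply, 3, 4 and 3 were higher and 0 lower (limma; 0, 3 and 0 lower at an unadjusted p under 0.05), with medians of 0.00, 0.02 and 0.10. ATP7A, the copper pump that loads LOX in the secretory pathway, rose by 0.34, 0.37 and 0.32 ± 0.06 (adjusted p = 0.0291, 0.00684 and 0.0114). SLC2A1 and SLC2A3, glucose carriers that also take up oxidised ascorbate, rose by 1.98 and 0.81 at 24 h (adjusted p = 2.69e-06 and 0.000776), and the transferrin receptor gene TFRC, for iron uptake, by 0.25 at 12 h (adjusted p = 0.0373). The ascorbate transporter gene SLC23A2 did not pass (-0.09, -0.16 and -0.14).

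Of 14 genes for lysyl oxidase substrates and partners, 1, 2 and 3 were higher and 0 lower (limma; 0, 1 and 1 lower at an unadjusted p under 0.05), with medians of 0.07, 0.14 and 0.12. COL5A1 was at 0.24 at 6 h and rose by 0.35 and 0.57 (adjusted p = 0.103, 0.0106 and 0.00156), and COL3A1 rose by 0.34 at 6 h and 0.22 at 12 h (adjusted p = 0.0364 and 0.0465), with 0.14 at 24 h not passing (adjusted p = 0.186). EFEMP2 and FMOD, matrix proteins that bind LOX or collagen, rose by 0.32 and 0.34 at 24 h (adjusted p = 0.0233 and 0.0179). COL1A1, COL1A2, COL4A1, COL4A2 and ELN did not pass at any time. Of these, COL1A2 was dim, at a mean of 5.26 over all arrays.

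Of 11 measured genes for other dioxygenases that use 2-oxoglutarate, 4, 5 and 5 were higher and 0, 1 and 0 lower (limma; 1 and 0 lower at 6 and 24 h at an unadjusted p under 0.05), with medians of 0.11, 0.14 and 0.11. EGLN3, EGLN1 and the histone demethylase gene KDM3A rose by 2.36, 1.48 and 1.36 at 24 h (adjusted p = 1.39e-05, 1.67e-05 and 2.11e-05). ASPH, an aspartyl hydroxylase of the endoplasmic reticulum, rose by 0.33, 0.52 and 0.55 (adjusted p = 0.0445, 0.00331 and 0.00212). JMJD6 rose by 0.41 and 0.62 at 12 and 24 h (adjusted p = 0.0121 and 0.00244), and OGFOD1, a prolyl hydroxylase of a ribosomal protein, fell by 0.38 at 12 h (adjusted p = 0.00719). The asparaginyl hydroxylase gene HIF1AN (-0.04, 0.03 and -0.01) and the transmembrane prolyl hydroxylase gene P4HTM (0.03, -0.13 and -0.04) did not pass. P4HTM was dim, at a mean of 4.92 over all arrays. The next counts of the lists pool higher and lower calls. Without any 1 array they ran from 0 to 2, 1 to 5 and 2 to 5 for folding and processing at the 3 times. For lysyl oxidase substrates the counts ran from 0 to 1, 0 to 5 and 1 to 4. They ran from 1 to 1, 1 to 4 and 1 to 3 for isomerases, from 0 to 0, 0 to 4 and 1 to 4 for export, from 1 to 3, 2 to 6 and 2 to 3 for cofactors, and from 3 to 4, 5 to 7 and 5 to 5 for dioxygenases. Over the other alternatives, the counts ran from 1 to 5, 3 to 7 and 3 to 7 for folding and processing, from 1 to 3, 3 to 4 and 3 to 4 for isomerases, and from 0 to 2, 2 to 5 and 2 to 6 for export. They ran from 2 to 3, 3 to 6 and 2 to 4 for cofactors, from 0 to 3, 1 to 6 and 2 to 7 for lysyl oxidase substrates, and from 3 to 5, 6 to 6 and 5 to 5 for dioxygenases.

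**Figure D5:**
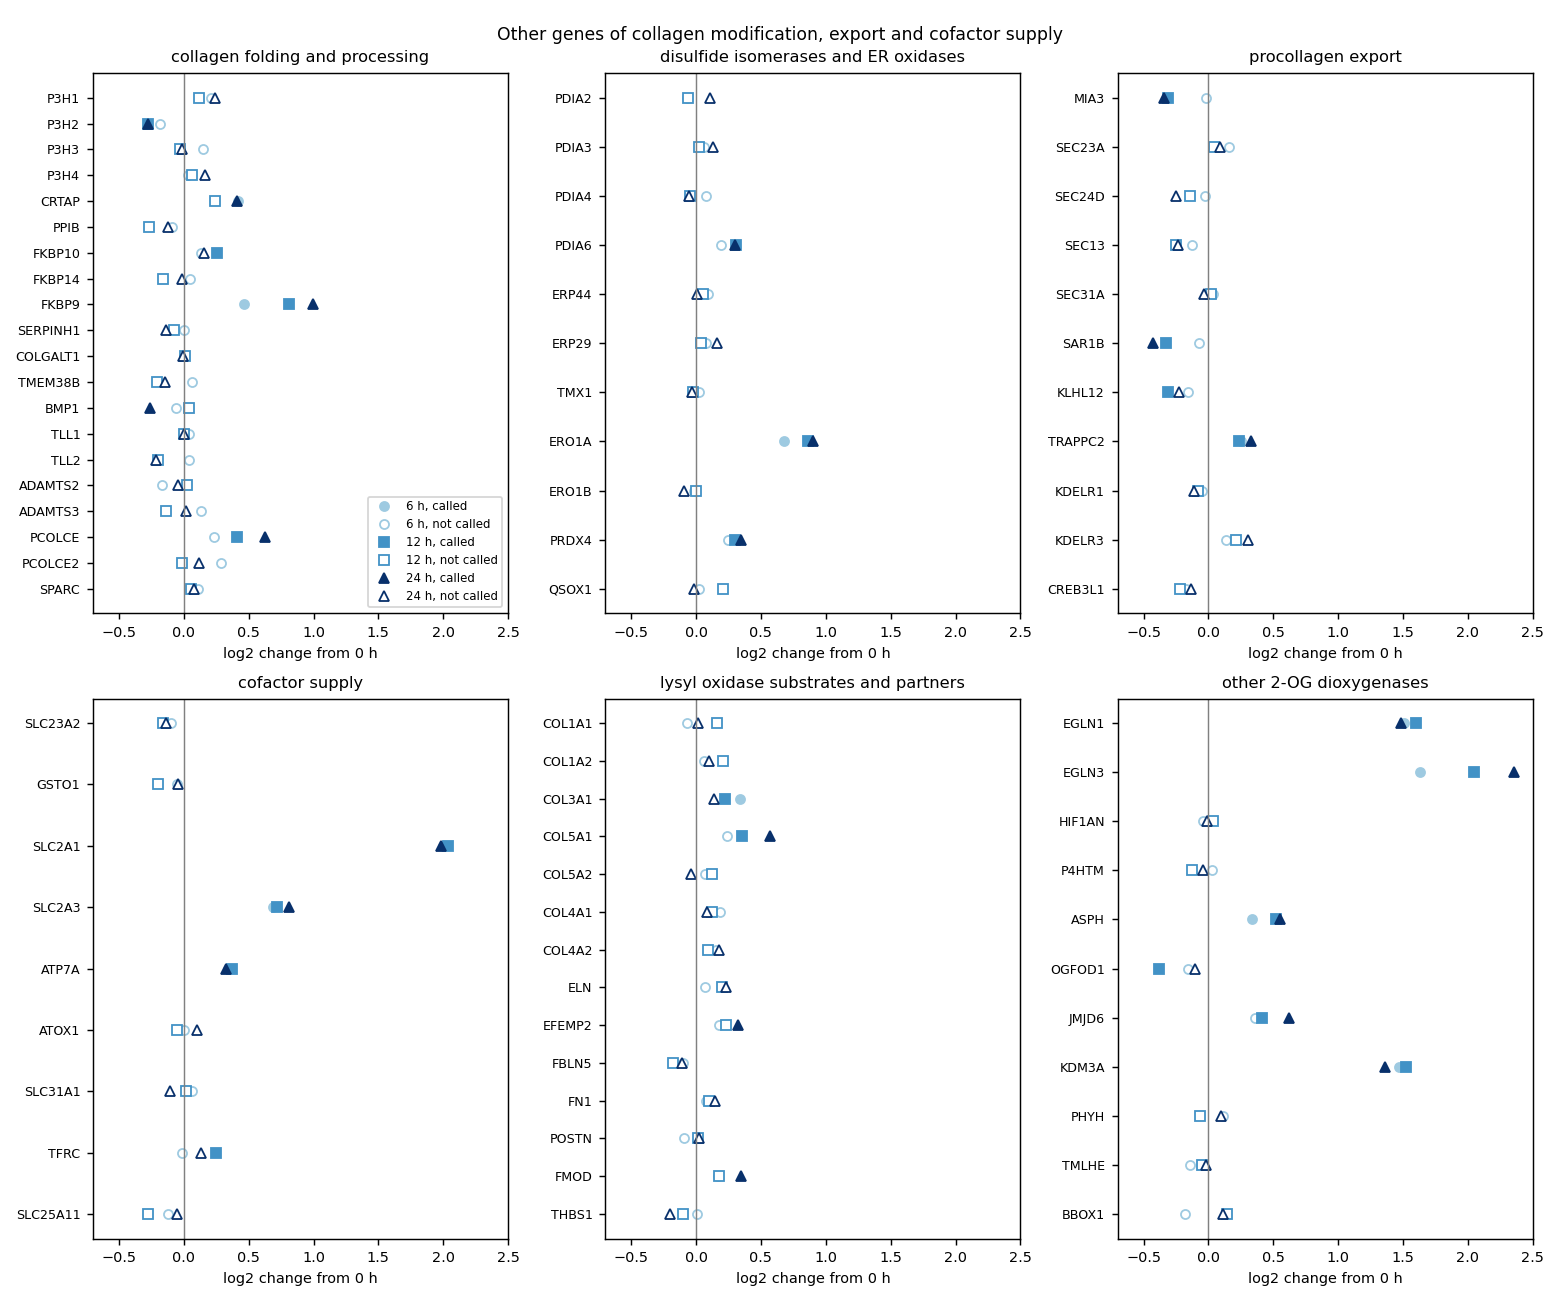
Each panel is a gene list and each line a gene; the horizontal axis is the log2 change from 0 h, and circles, squares and triangles are 6, 12 and 24 h, filled where the limma adjusted p was under 0.05. Changes past 1 are seen for EGLN1, EGLN3, KDM3A and SLC2A1, while those of the collagen and elastin genes lie between -0.07 and 0.57.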

How the data were processed

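RMA made the log2 values that the authors deposited for each probe set, according to the submitters' processing notes; the RMA software was not given in the sources used here. RMA normalizes arrays to each other, so a change in total messenger RNA is not visible. The number of arrays limits the precision. Group means of the 8 SJRH30 arrays (4 times, 2 arrays each) were fitted with limma 3.58.1 in R 4.3.3 over 22215 probe sets, without 62 controls and with no filter (4 residual degrees of freedom, prior 3.70). Tests were two-sided with Benjamini-Hochberg adjustment. The limma fit of probe sets, and no other step, was tested on simulated data, with changes put in at 6 h. Of the probe sets, 19064 had 1 annotated symbol, 1043 several and 2108 were unlisted; the platform annotation is old, and other genes' symbols were updated through Entrez identifiers. A gene with several probe sets was taken at the highest mean. Named were all members, genes of 6 lists, the 3 nearest patterns and markers. The members and lists were chosen with earlier results of these data known. Alternatives changed the scaling, dim probe set filter, variance trend, block, arrays fitted and summary per gene, and left out each array.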

Additional observations from a re-analysis of the deposited data

Results flagged for a closer look

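LOX differed between hypoxic times: 215446_s_at was higher at 24 h than at 6 h by 0.55 (limma adjusted p = 0.0462) and 204298_s_at by 0.42 (adjusted p = 0.0232). Neither call was secure: in a fit of only the 2 times the limma adjusted p was 0.0647 and 0.057, without any 1 of the arrays of 0 or 6 h it was 0.0681 to 0.261, and with arrays centred on their medians that of 215446_s_at was 0.0533. Both probe sets belong to the same gene and arrays. No time has more than 2 arrays, so single arrays could not be tested as outliers.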

How the results depend on the processing

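Of 21 called changes of member probe sets from 0 h, 16 were called under all 15 alternatives run on probe sets; 302 of 315 alternative values kept the call, 13 lost it and 0 reversed. Of 354 alternatives for the 24 uncalled changes, 339 stayed uncalled, 15 passed and 0 reversed. With an intensity trend in the variance, 5 member probe sets were called from 6 to 12 h and 2 from 12 to 24 h, in place of 0. Without the dimmest 25% of probe sets 1 was called from 6 to 12 h. Without the dimmer 50%, 8 were called at 6 h, 5 from 6 to 12 h and 1 from 12 to 24 h, and 5 of 7 pairs of related genes at 6 h in place of 3. At 6 h calls over all probe sets also rose without the dimmer 50%, to 2078 from 600. Under the intensity trend and both filters, calls over all probe sets between hypoxic times and over all within-array differences were not counted. These member and pair counts therefore have no share to stand beside. Centring arrays on their medians left 1 probe set called from 6 to 24 h. Fits of only the 2 times compared called 0 from 6 to 24 h and 2 pairs at 12 h in place of 6.

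The labels do not say whether replicate numbers pair the arrays, and same-numbered deviations correlated at -0.13 to 0.08 between times. With the replicate block, 0 probe sets were called from 6 to 24 h and 3 pairs at 12 h, and P4HA2 lost its 6 h call (limma adjusted p = 0.0684). The 6 to 24 h calls of LOX were lost (0.0837 and 0.0549), as were those of PLOD2 against PLOD1 at 6, 12 and 24 h (0.0985, 0.0505 and 0.0502) and of LOX and LOXL2 against LOXL1 at 12 h (0.0755 and 0.0786). LOX 213640_s_at was called at 12 and 24 h (0.0294 and 0.0299).

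Without any 1 array, the member probe sets called ranged from 3 to 5 at 6 h, from 0 to 2 between 6 and 24 h and from 5 to 8 in the F-test. Member genes called at 6 h ranged from 2 to 4 (6 with the intensity trend or without the dimmer 50%, LOX and LOXL2 included, and 5 without the dimmest 25%), and pairs from 0 to 3 at 6 h, 1 to 6 at 12 h and 2 to 6 at 24 h. Calls over all probe sets ranged from 84 to 650 at 6 h (600 with all arrays), 857 to 3949 at 12 h (3602) and 951 to 3516 at 24 h (3257). Over the other alternatives they ranged from 334 to 2078, 2294 to 5044 and 2556 to 4671. The cause was not tested. No scaling moved the median of all probe sets beyond -0.02 to 0.02. Dim probe sets and 2 arrays per time limit what could be called.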
